A study of Saccharomyces cerevisiae with 11 samples.

Results

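The comparison set yeast grown for 12 h with the antifungal aureobasidin, at the dose labelled 150, against untreated yeast sampled at the same age. Its members are 2 of the series' 11 samples, chosen by title, and within them 10 of the 55 barcoded libraries, 5 for each sample. The cells were Y2H Gold, a Saccharomyces cerevisiae reporter strain, and carried a cloned pool of designed 20-residue peptides. Each library was a sub-pool marked by a replicate barcode, and counts were paired by that barcode's number. The labels give medium lacking tryptophan and daily dilution for every sample, the untreated ones included. The same growth text names antibiotic and a mass per volume for every sample, whereas the sample field gives a molar dose, so the dose is printed here as the label's number with no unit. Nothing in the labels says that the 5 barcodes were grown as separate cultures. Within a sample the barcodes held 14.9% to 28.0% of reads with the label 150 and 14.8% to 28.3% untreated, in the same order. The p-values below therefore measure the spread between barcoded sub-pools of 1 culture history per sample.

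A transcriptional activation domain is the part of a transcription factor that recruits coactivators to a promoter, and many such domains are acidic stretches dotted with aromatic or leucine residues. In Y2H Gold, a peptide that activates transcription when tethered to DNA switches on a gene for resistance to aureobasidin A, an inhibitor of yeast sphingolipid synthesis. Growth with the drug therefore enriches cells whose peptide activates, and the share of reads of each peptide in DNA recovered from the pool is the readout. The comparison at 12 h asks what the first hours of that selection did, with growth in culture common to both samples.

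The table listed 12400 library entries in 143 design sets. They hold 12142 distinct peptide strings, and 153 of the entries open with a stop and so encode no peptide. Many peptides, though not most, are built only from glycine, tryptophan (W), aspartate (D) and, in some sets, arginine (R). Further families replace the glycines, tryptophans or aspartates of 100 parent peptides, repeat a short core with varied neighbours, or are natural activation domains. Each entry has its own 20-base DNA barcode in the table. Those of the entries that the results return to most are printed 5′ to 3′ as identifiers, with no base capitalised: the entry that led the pool at 72 h, a proline variant among the most abundant, leading phenylalanine and leucine variants, and the entries with the largest named losses.
Entry 8135: ggccacatgtgtctgtcttt
Entry 8839: ctcctgctacatcacttgca
Entry 7021: gggatatgacgtaacagtta
Entry 7546: ttcagtgagtggcattaggg
Entry 10219: ggctgtagacgaacagagac
Entry 10747: tagtcatcctgcttctttcc

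The libraries held 1378803 to 2601802 counts with the label 150 and 1414391 to 2709763 untreated. At 12 h the label 200 moved the pool less than the label 150 did, which goes against the order of the labelled numbers and is taken up near the end. Levels are given as CPM, counts per 1000000 counts of the library. A log2 change is 150 over untreated on the scale of the share of the pool, so a rise means a gain of share and not faster growth in absolute terms.

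The pool was narrower with the drug. The effective number of sequences, the exponential of the Shannon entropy of the shares, was 1482, 1560, 1518, 1384 and 1356 in barcodes 1 to 5 with the label 150, against 1715, 1800, 1766, 1629 and 1592 untreated. The groups did not overlap. The mean was 1460 ± 87.0 with the label 150 and 1700 ± 88.4 untreated (SD, n = 5 each), so that it fell by 14.2% (two-sided exact unpaired permutation test, p = 0.00794, adjusted p = 0.0106 over 4 measures). All 5 pairs were lower. The 0 h pool stood at 3490 ± 130 (SD, n = 5), so most of the narrowing by 12 h was also present without drug. The paired sign-flip test cannot reach 0.05 with 5 pairs, and each of the 4 measures gave its smallest possible p.

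Stop-first entries, which carry no peptide to activate the reporter, lost the most of the 4 measures. They made up 0.0236%, 0.0199%, 0.0187%, 0.0234% and 0.0164% of reads with the label 150 in barcodes 1 to 5, against 0.0528%, 0.0495%, 0.0355%, 0.0575% and 0.0399% untreated. The groups did not overlap, and all 5 pairs were lower. The share fell by 56.4%, to 0.0204 ± 0.0031% with the label 150, against 0.0471 ± 0.0091% untreated (SD, n = 5 each; exact unpaired permutation, p = 0.00794, adjusted p = 0.0106). Untreated culture alone had already brought it well below the 0.400 ± 0.0264% of 0 h. These shares rest on 277 to 487 reads per library with the label 150 and 696 to 1040 untreated.

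Entries with at least 1 read numbered 7387 ± 445 with the label 150 and 9006 ± 428 untreated (SD, n = 5 each; exact unpaired permutation, p = 0.00794, adjusted p = 0.0106). Thinned to 1378803 counts per library, they numbered 7055 ± 175 and, untreated, 8641 ± 172. The 10 most abundant entries of a library held 5.54 ± 0.70% of reads with the label 150 and 5.26 ± 0.70% untreated (SD, n = 5 each). That share was higher in 5 of 5 pairs, by less than the spread between barcodes (exact unpaired permutation, p = 0.524, adjusted p = 0.524).

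**Figure D1:**
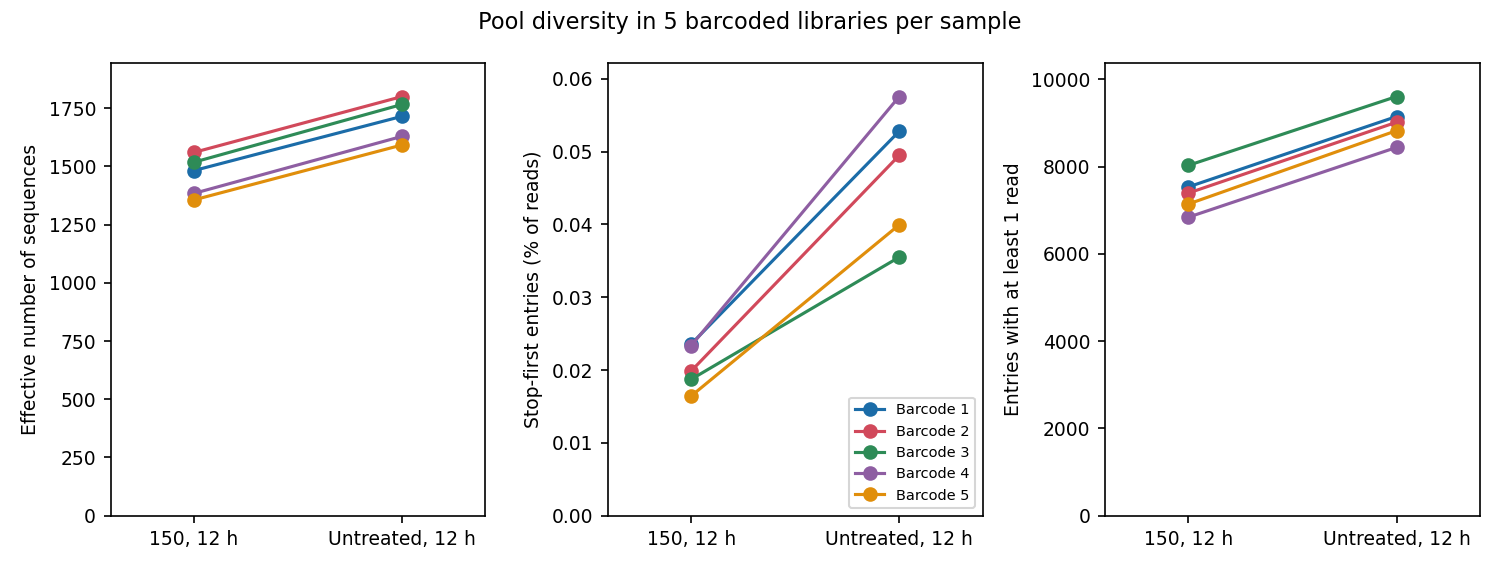
Effective number of sequences, percent of reads in stop-first entries, and number of entries with a read, at 12 h; each point is 1 barcoded library, and lines join libraries of 1 barcode. Each measure is lower with the label 150 (left) than untreated (right) in 5 of 5 barcodes.

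Of 12400 entries, 5124 averaged 10 counts or more across the 10 libraries and were tested, and they held 99.5% of reads with the label 150 and 98.7% untreated. The other 7276 were too rare to test, and 765 of them had no read in either sample. In edgeR's quasi-likelihood test with the barcode as a block, 876 entries gained share (17.1% of those tested) and 2159 lost share (42.1%) at an adjusted p under 0.05. The losses were deep and the gains shallow: 1309 entries (25.5%) lost at least 2-fold and 0 gained as much. Among the calls the median log2 change was 0.29 for gains and -1.22 for losses. Over all tested entries it was -0.31, from -3.76 (13.5-fold lower) to 0.98 (1.97-fold higher).

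The number of calls rests on the block and on the scaling. Without the block edgeR called 0 higher and 0 lower, with 0 and 12 at an unadjusted p under 0.05; with it, the calls rest on the spread of the ratio within barcode pairs. Gains were 28.9% of the calls with total counts, 57.7% with TMM factors, 56.2% with DESeq2 and 96.3% with scaling to stop-first reads. Those scalings moved the median log2 change over all entries up by 0.29, 0.24 and 1.18. Scaled to stop-first reads, a family median that is above about -1.18 by total counts comes out positive, so the directions given below are directions of share alone.

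How exactly entries measured a peptide could be read from repeats of it. Across 22 peptides that had several tested entries (75 in all), the median SD of the log2 change among entries of 1 peptide was 0.15, against 0.77 over all tested entries. The largest range within a peptide was 0.84. All 22 were control peptides, so substitution variants, core peptides and the other designs are not represented.

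The change went with the numbers of tryptophan and aspartate. Among peptides with no arginine, those with 2 tryptophans had a median log2 change of -1.81, with 102 lower and 0 higher of 114 tested. These 114 came from 541 entries, which together held 0.0997% of reads with the label 150 and 0.320% untreated. The filter on counts thus kept such entries partly by their untreated reads, and the median describes the tested ones alone. The median was -0.40 with 4 tryptophans, -0.13 with 5, 0.05 with 6, 0.10 with 7 and 0.04 with 8. It was negative again with 9 (-0.15), 10 (-0.55) and 11 (-0.65). With aspartate the medians were -1.65 with 2 aspartates, -0.50 with 4, -0.21 with 5, 0.04 with 6, 0.09 with 7, 0.03 with 8, -0.13 with 9, -0.49 with 10 and -0.19 with 11. The peptides with 10 aspartates were divided, with 6 higher and 8 lower of 20 tested, and their summed share was 1.059-fold that of untreated cells, higher in 4 of 5 pairs. Of 579 entries with 2 aspartates, 117 were tested. The designs tie the numbers together, since most peptides with 2 tryptophans also have 2 aspartates.

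Peptides rich in only 1 of these residues also lost share. With 8 tryptophans and 2 aspartates the median was -1.56 over 11 tested, and with 2 tryptophans and 8 aspartates it was -1.68 over 7. With 7 of each it was 0.10 over 115 tested, of which 36 were higher and 21 lower, and with 8 of each it was 0.12 over 84 tested, of which 32 were higher and 16 lower. With 5 of each it was -0.13 over 43, of which 4 were higher and 17 lower, losses near the 42.1% over all tested entries. With 8 tryptophans and 5 aspartates it was -0.62, with 7 of 10 lower. The highest medians lay in cells of few peptides, 0.35 with 7 tryptophans and 10 aspartates and 0.30 with 8 and 10, over 4 tested in each cell. With 10 tryptophans the median was -0.82 beside 4 aspartates, -0.44 beside 5 and -0.02 beside 6.

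**Figure D2:**
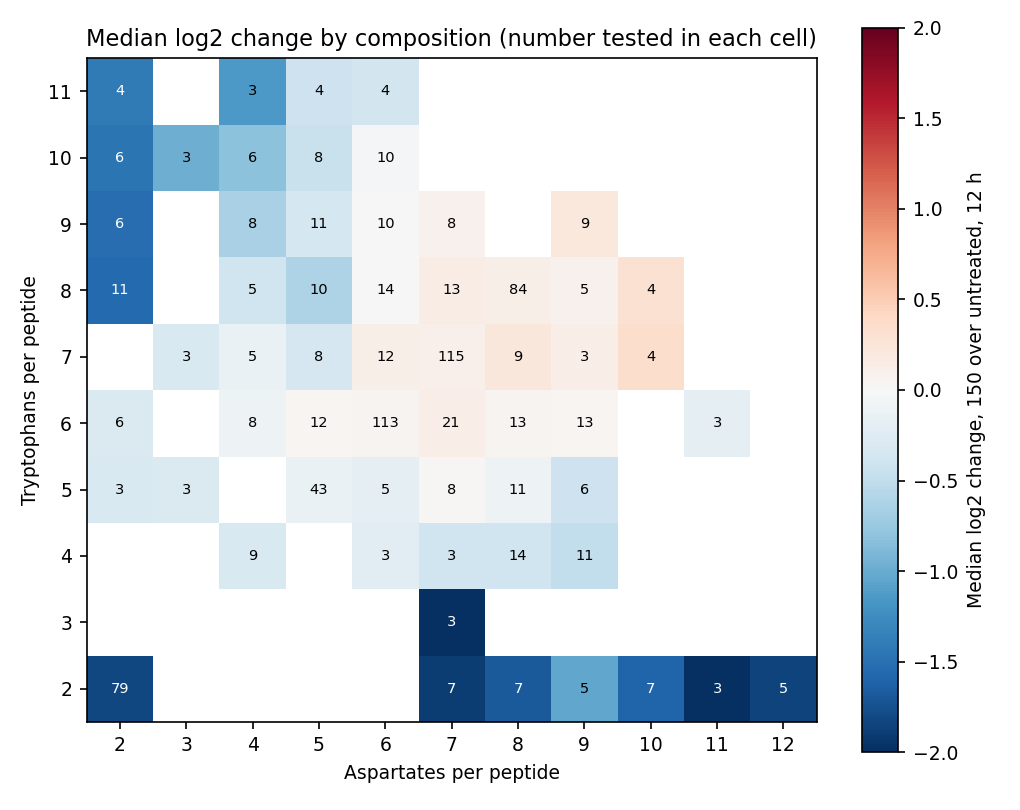
Median log2 change (150 over untreated, 12 h, colour) by the number of aspartates (horizontal) and tryptophans (vertical) in peptides without arginine; the number in each cell counts tested peptides, and cells with fewer than 3 are blank. Losses line the edges where either residue is scarce, such as -1.81 with 2 of each, and the positive medians lie where both are plentiful. They run from 0.01 with 8 tryptophans and 6 aspartates to 0.35 with 7 tryptophans and 10 aspartates (4 tested), with 0.10 for 7 of each.

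Within the 491 tested peptides that had 5 to 8 of both residues, the change went with the arrangement of the residues. Tryptophans next to aspartates, in either order, were counted as contacts. The median log2 change was -0.65 with 0 contacts, -0.22 with 1, -0.06 with 2, 0.10 with 4, 0.13 with 5, 0.17 with 6 and 0.23 with 7. Of 50 tested peptides with 0 or 1 contact 3 were higher and 25 lower, and of 84 with 6 or more 46 were higher and 3 lower. Spearman's rho across these 491 peptides, which share the same libraries, was 0.48.

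Longer runs of tryptophan went with lower values. The median was 0.06 where no tryptophans adjoined and 0.14 where the longest run was 2 tryptophans, with 58 higher and 12 lower of 163. It was 0.03 with a run of 3, -0.05 with 4 and -0.19 with 5. In a linear fit made in each barcode with both numbers, contacts, runs and relative position together, the log2 ratio changed by 0.082 ± 0.0066 per contact and by -0.074 ± 0.017 per residue of the longest run (SD over 5 barcodes). In the same fit it changed by -0.014 ± 0.036 per tryptophan and 0.018 ± 0.025 per aspartate. These features accounted for a fraction of 0.192 to 0.281 of the variance among peptides in the 5 barcodes.

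The order of the residues along the peptide also went with the change. Where the tryptophans lay on average over 5 positions before the aspartates, 19 of 23 tested peptides were lower and 0 higher, with a median of -0.94. Where they lay up to 2 positions after the aspartates the median was 0.15, with 29 higher and 7 lower of 78, and from 2 to 5 positions after it was 0.13. Over 5 positions after, it was -0.01, with 18 higher and 20 lower of 85. Peptides ending in tryptophan had a median of 0.10 over 199 tested, against 0.02 for those ending in aspartate and 0.05 in glycine.

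The 6 order controls, each 1 peptide with 4 entries, fix composition and vary order. The peptide of 10 alternating pairs of tryptophan and aspartate held 0.0791% of reads with the label 150 and 0.0653% untreated, and 3 of 3 tested entries were higher. The same 10 tryptophans in a block ahead of the 10 aspartates held 0.000983% with the label 150 and 0.00398% untreated, and both tested entries were lower (median -1.94). With 7 tryptophans and 5 aspartates, the peptide with 6 contacts and a longest run of 4 had a median of 0.13, and 1 of 3 tested entries was higher. The peptide with 3 contacts and a run of 6 had a median of -0.70, and 4 of 4 were lower. With 5 of each the longest run was 5 in both peptides. The peptide with 2 contacts had a median of 0.09, with 1 of 4 higher and 0 lower. The peptide with 1 contact, whose last 5 residues are all tryptophan, had a median of -0.61, and 4 of 4 were lower.

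Arginine, the only basic residue of these designs, went with a loss of share. The median log2 change was -0.19 with 1 arginine, -0.42 with 2, -0.69 with 3, -1.08 with 4, -1.26 with 5 and -1.48 with 6. From there it fell little and unevenly, at -1.425 with 7, -1.66 with 8 and -1.65 with 9. Spearman's rho was -0.54 across the 607 tested peptides of the arginine designs, of which 4 were higher and 409 lower. In 20 positions more arginines leave fewer for the other residues. In a linear fit per barcode that also held the numbers of tryptophan and aspartate, the log2 ratio changed by -0.059 ± 0.016 per arginine (SD over 5 barcodes), and the fit accounted for a fraction of 0.061 to 0.091 of the variance among peptides. A net charge of -4 or less went with a median of -0.28 and 51 lower of 111, and a net charge of 4 or more with -1.53 and 84 lower of 112. The sets of random peptides of glycine, tryptophan, arginine and aspartate had 2 higher and 79 lower of 116 tested, with a median of -1.15.

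**Figure D3:**
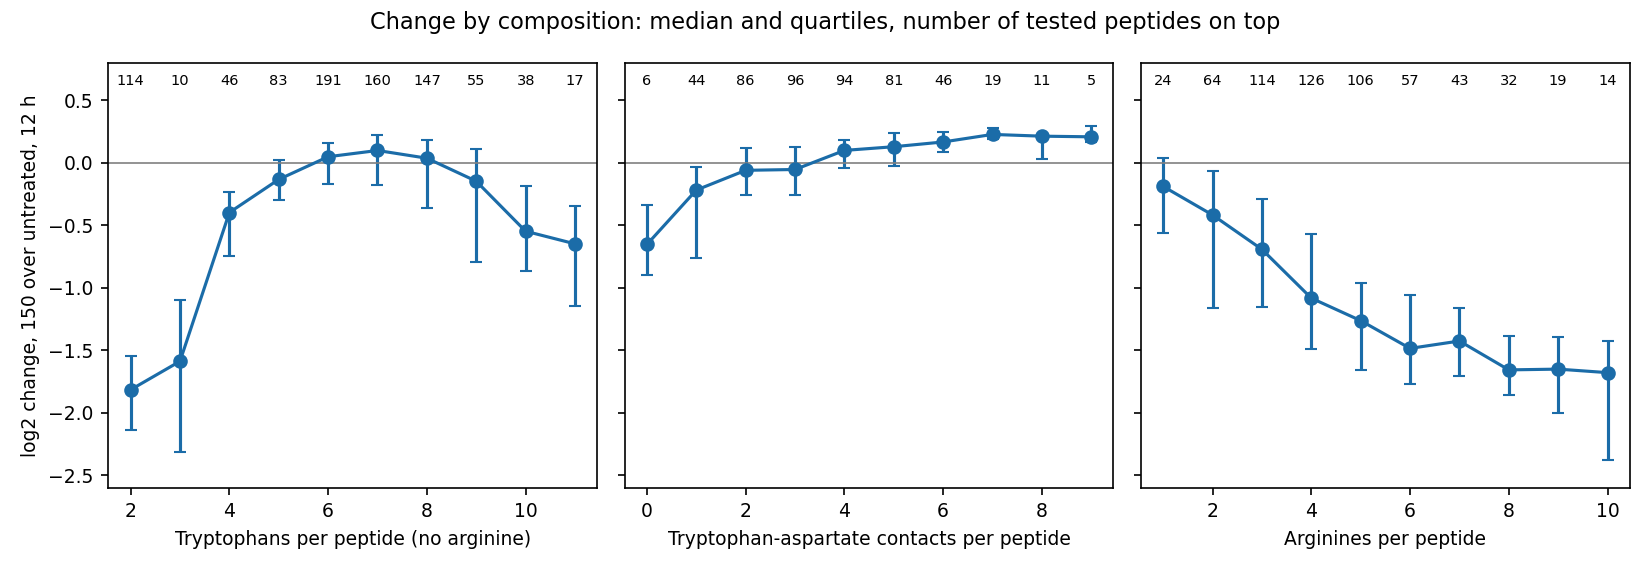
Log2 change (150 over untreated, 12 h) by number of tryptophans in peptides without arginine, by tryptophan-aspartate contacts in peptides with 5 to 8 of each, and by number of arginines; points are medians, bars run between the quartiles, and the number of tested peptides stands on top. The curve peaks at 7 tryptophans (0.10) and climbs with contacts (-0.65 with 0 contacts, 0.23 with 7). It falls with arginines up to 6 (-0.19 with 1, -1.48 with 6) and unevenly beyond (-1.425 with 7, -1.66 with 8).

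The core families vary the residues on both sides of a hydrophobic one. Each unit holds an aspartate, a glycine, a varied residue, a central tryptophan, phenylalanine, leucine or tyrosine, and a second varied residue, and peptides end in 1, 2 or 3 copies of the unit. Losses were deeper with fewer copies. Peptides with 1 copy held 0.0735%, 0.0854%, 0.0817%, 0.0766% and 0.0875% of reads with the label 150, against 0.234%, 0.262%, 0.253%, 0.243% and 0.251% untreated, in barcodes 1 to 5. The groups did not overlap. Their summed share was 0.325-fold that of untreated cells, that of peptides with 2 copies 0.743-fold, and that of peptides with 3 copies 0.985-fold.

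With 3 copies, the families differed with the central residue, a difference that was not tested. Phenylalanine cores had 31 higher and 72 lower of 218 tested (median -0.36), tryptophan cores 30 and 136 of 289 (-0.46), and leucine cores 20 and 58 of 147 (-0.61). Tyrosine cores had 0 higher and 111 lower of 190 (-0.82). By summed share the order was another, with log2 differences of 0.05 for leucine, 0.02 for phenylalanine, -0.03 for tryptophan and -0.28 for tyrosine cores. Over all tested entries 17.1% were higher and 42.1% lower. Leucine cores, at 13.6% and 39.5%, lay near those shares, as did the 47.1% lower of tryptophan cores, of which 10.4% were higher. Phenylalanine cores had 14.2% higher and 33.0% lower, and tyrosine cores 0% and 58.4%.

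In these 3-copy peptides, changes differed with the flanking residues on both sides. The residue after the central one gave medians of 0.05 for phenylalanine (20 higher and 15 lower of 74 tested), -0.01 for tryptophan and -0.09 for leucine, all hydrophobic. It gave -1.22 for alanine, -1.09 for valine, -1.18 for histidine and -1.50 for arginine, and with arginine 15 of 19 tested were lower and 0 higher. Before the central residue the highest medians were -0.10 for phenylalanine, -0.11 for tryptophan, -0.13 for leucine and -0.16 for aspartate. The lowest were -1.11 for lysine and -1.47 for arginine. Only 9 peptides with lysine before the core and 2 with lysine after it, of 80 each, had enough counts to test. With 2 copies every flank had a negative median, and before the central residue these were -0.45 for tryptophan, -0.61 for cysteine, -0.62 for phenylalanine, -0.90 for leucine and -0.99 for aspartate.

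Peptides with little besides glycine lost share. Those with 1 aromatic and 1 aspartate had 24 lower and 0 higher of 29 tested, out of 760 entries. Peptides with 2 aromatics and 2 aspartates had 88 lower and 0 higher of 106 tested, out of 760 entries (median -1.78). The filter on counts bears on the depth of these losses, as values given near the end show. The tryptophan-proline sets end in 2 (first template) or 3 (second template) proline-tryptophan pairs, with aspartates placed before them. The first template had 91 lower and 0 higher of 113 (median -1.49), and the second 86 lower and 1 higher of 159 (-0.40). In the second the median was -0.24 where the last aspartate lay 0 to 2 residues from the block, -0.47 at 3 to 5 and -0.58 at 6 to 13.

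The substitution series replace residues in the 100 parents, which had 32 higher and 8 lower of 97 tested and a median log2 change of 0.14. Variants with phenylalanine in place of some or all tryptophans, or leucine in place of some, stood higher. With some tryptophans replaced by phenylalanine, 55 were higher and 4 lower of 97 tested (median 0.29), and with some replaced by leucine 47 were higher and 3 lower of 87 (0.26). Against its own parent in the same fit, a variant with some tryptophans replaced by phenylalanine lay above it in 72 of 94 pairs, and by leucine in 63 of 85, with median differences of 0.16 and 0.15. With every tryptophan replaced by phenylalanine, 34 were higher and 7 lower of 95 (0.29).

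Replacing every tryptophan with leucine split the family, with 23 higher and 24 lower of 86 and a median of -0.08 that TMM factors turn to 0.21. Of these leucine variants 29 of 83 lay above their parent, with a median difference of -0.13. Their summed share was nevertheless 1.128-fold that of untreated cells, higher in 5 of 5 pairs. Tyrosine differs from phenylalanine by a hydroxyl group. With some tryptophans replaced by tyrosine, 9 were higher and 14 lower of 95 tested, a median of -0.02 that TMM factors turn to 0.27, and the summed share was 1.001-fold that of untreated cells. Of these variants 22 of 92 lay above their parent. Variants with every tryptophan replaced by tyrosine held 0.0855%, 0.142%, 0.105%, 0.0880% and 0.0998% of reads with the label 150, against 0.153%, 0.258%, 0.181%, 0.162% and 0.181% untreated. The groups did not overlap. Of 62 tested, 45 were lower and 0 higher, with a median of -0.94, and 0 of 59 lay above their parent.

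Glutamate, the other acidic residue, replaced aspartate in a pair of series. With some aspartates replaced 23 were higher and 14 lower of 93 tested (median 0.06). With all replaced 1 was higher and 36 lower of 91 (39.6%, near the 42.1% over all tested entries), with a median of -0.15 that TMM factors turn to 0.14, and 11 of 89 lay above their parent.

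Among the 11 glycine series, proline stood highest. Variants with some glycines replaced by proline held 3.93%, 3.33%, 3.92%, 4.02% and 3.86% of reads with the label 150, against 3.26%, 2.71%, 3.17%, 3.25% and 3.13% untreated. The groups did not overlap. Of 95 tested, 70 were higher and 2 lower (median 0.30), against 17.1% higher over all tested entries, and 78 of 92 lay above their parent by a median difference of 0.16. The methionine series had 60 higher and 12 lower of 93 (median 0.22), leucine 61 and 12 of 94 (0.20), alanine 51 and 9 of 92 (0.20), asparagine 34 and 2 of 97 (0.20), threonine 44 and 9 of 98 (0.19), and glutamine 33 and 5 of 94 (0.18). Against their own parents, these 6 series had median differences of 0.02 (threonine) to 0.06 (asparagine).

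The branched aliphatic residues valine and isoleucine gave both gains and losses. Valine variants had 24 higher and 33 lower of 83 tested and isoleucine variants 19 and 29 of 76. Their medians were -0.06 and -0.08, which TMM factors turn to 0.22 and 0.21. Lower calls were 39.8% and 38.2%, near the 42.1% over all tested entries. Higher calls were in both series more frequent than the 17.1% over all tested entries. Summed share was 1.016-fold that of untreated cells for valine (4 of 5 pairs higher) and 1.054-fold for isoleucine (5 of 5). Against their own parents 17 of 81 valine variants and 17 of 73 isoleucine variants lay above, with a median difference of -0.20 in each series. Serine, with 26 higher and 24 lower of 95, lay between these and threonine.

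Cysteine variants stood lowest of the glycine series. They held 4.15%, 3.92%, 3.88%, 3.07% and 2.95% of reads with the label 150, against 5.29%, 4.78%, 4.74%, 3.92% and 3.79% untreated. All 5 pairs were lower, and the groups overlapped, with barcodes 4 and 5 lowest in both samples. Of 97 tested, 74 were lower and 9 higher (median -0.60), and 9 of 94 lay above their parent. These variants were abundant before selection, at 3.81% of reads at 0 h.

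**Figure D4:**
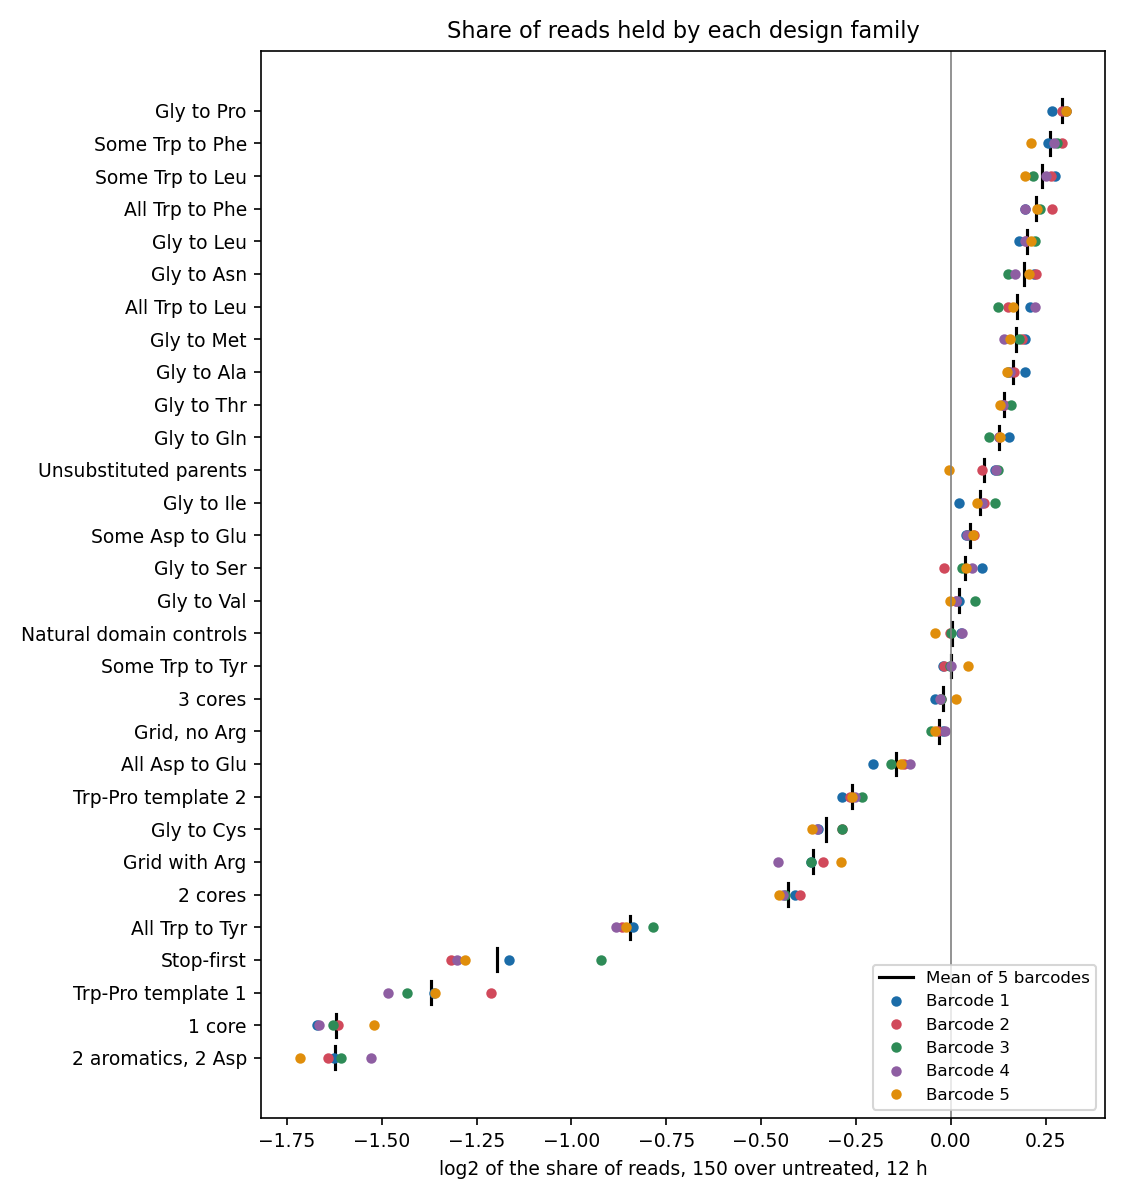
Log2 of the share of reads held by each of the families drawn, 150 over untreated at 12 h, with the core sets pooled by copies and the sets of 2 aromatics and 2 aspartates pooled; each point is 1 of 5 barcodes, bars are their means, and families run from the highest to the lowest mean. Proline for glycine is highest (0.29) and peptides with 1 core or with 2 aromatics and 2 aspartates are the lowest drawn (-1.62 each).

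The 24 control peptides, most of them known activation domains, with 4 entries each, gave 8 higher and 23 lower of 59 tested entries. These are 13.6% and 39.0%, near the 17.1% and 42.1% over all tested entries. Their summed share was 1.01% of reads in both samples, and their median log2 change of -0.20 turns to 0.10 with TMM factors. Oaf1, from a yeast activator of fatty acid genes, held 0.380%, 0.395%, 0.375%, 0.398% and 0.369% of reads with the label 150, against 0.319%, 0.333%, 0.310%, 0.317% and 0.298% untreated. The groups did not overlap, and 4 of 4 entries were higher (median 0.27, lowest edgeR adjusted p = 1.49e-08). The doubled minimal VP16 peptide, from the herpes simplex activator, was 1.30-fold higher in summed share, with 3 of 4 entries higher. A plant heat shock factor, HSFA2, had 1 of 4 higher.

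A single minimal VP16 peptide had 49 reads with the label 150 and 183 untreated, and its 1 tested entry was lower (log2 change -2.66). Pdr1, a yeast drug resistance regulator, had 4 of 4 lower (median -0.74). EBNA2 and KLF4 each had 3 of 4 lower (-0.78 and -0.38). The longer VP16 peptide, at 0.207% of reads with the label 150 and 0.229% untreated, had 1 of 4 lower. Both Gal4 peptides had 0 entries past the threshold, the more abundant with a median of -0.03 over 3 tested. Gln3, STAT6, TAT and 1 of the Msn2 peptides had too few reads for a test. The p53 peptide had 0 of 4 entries past the threshold, with log2 changes of -0.21 to 0.20.

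The 12 entries with the largest gains rose by 1.48-fold to 1.71-fold. Entry 7021, with 7 phenylalanines for tryptophans, stood at 88.1, 159, 140, 192 and 9.49 CPM with the label 150, against 50.3, 91.2, 104, 137 and 8.04 CPM untreated. It was higher in 5 of 5 pairs, 1.51-fold (log2 0.60, SE 0.11, edgeR adjusted p = 4.99e-05). Barcode 5 was lowest in both samples, and the groups overlapped. Entry 7546, with 4 tryptophans and 4 leucines, stood at 533, 81.1, 323, 315 and 255 CPM with the label 150, against 394, 47.4, 228, 177 and 180 CPM untreated. It was 1.49-fold higher, in 5 of 5 pairs (log2 0.58, SE 0.07, edgeR adjusted p = 4.78e-08), with overlap between the groups and barcode 2 lowest in both.

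The other leading gains were entries 7069 and 7066, with phenylalanine for every tryptophan, at 1.71-fold and 1.62-fold. An entry of the doubled VP16 peptide was 1.61-fold higher and entry 4046, a phenylalanine core peptide, 1.59-fold. Entry 7268, with leucine for every tryptophan, was 1.54-fold higher, and entry 7571, with leucine for some, 1.48-fold. Entries 8607, 8493, 8571 and 8407 carry glutamine, asparagine, asparagine and threonine for glycine and were 1.49-fold to 1.57-fold higher. None of the 12 averaged over 301.4 CPM with the label 150.

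The 8 named losses, among entries of at least 50 CPM untreated, were larger. Entry 10219, with 2 tryptophans, 2 aspartates and 16 glycines, stood at 4.17, 0.587, 1.15, 39.2 and 1.78 CPM with the label 150, against 26.4, 5.197, 8.86, 248.9 and 12.6 CPM untreated. It was lower in 5 of 5 pairs, 6.53-fold (log2 -2.71, SE 0.27; adjusted p = 1.37e-10 in edgeR), and barcode 4 held most of it in both samples. Entry 10747, with 5 arginines, stood at 3.65, 51.1, 22.7, 3.63 and 1.19 CPM with the label 150, against 21.8, 250.6, 131, 21.9 and 13.2 CPM untreated, and was 5.53-fold lower (log2 -2.47, SE 0.18, edgeR adjusted p = 1.79e-14). Of the other 6, entries 1031, 11809 and 9406 have 2 tryptophans and 2 aspartates, and 11903 and 12275 have 3 and 5 arginines. Entry 7816, an alanine variant with 1 contact, was 3.36-fold lower.

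The most abundant entries with the drug did not share a direction. Their levels differed widely between barcodes. Entry 7968, a valine variant, stood at 9721, 4490, 2173, 438.8 and 676 CPM with the label 150, against 9435, 4503, 2061, 490.7 and 821 CPM untreated, and had a log2 change of -0.05 (adjusted p = 0.284, edgeR). Entry 8706, a cysteine variant, stood at 9873, 1312, 2928, 1182 and 845 CPM with the label 150, against 11785, 1575, 3476, 1229 and 1061 CPM untreated. It was lower in 5 of 5 pairs (log2 -0.23, edgeR adjusted p = 4.05e-06). Barcode 1 was highest for both entries in both samples, and their rank by mean level rests largely on it. Entry 8839, a variant with 5 prolines, stood at 1752, 3109, 734.1, 1739 and 6242 CPM with the label 150, against 1344, 2624, 688.3, 1376 and 4913 CPM untreated. It was 1.22-fold higher, in 5 of 5 pairs (edgeR adjusted p = 4.35e-07). Entries 9237 and 11591 were 1.11-fold and 1.083-fold higher, each in 4 of 5 pairs, and 9288 had a log2 change of -0.02.

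Entry 8135, a leucine variant with 7 tryptophans, 7 aspartates and 3 leucines, gained the most of its series. It stood at 2727, 3327, 2223, 1960 and 1547 CPM with the label 150, against 1931, 2347, 1531, 1442 and 1240 CPM untreated, higher in 5 of 5 pairs (1.38-fold, log2 0.46, SE 0.04, edgeR adjusted p = 3.74e-12). Barcode 5 was lowest in both samples, and the groups overlapped. It was followed because it held 10.8% of reads at 72 h with the label 150. Entries 8168 and 8122, also leucine variants picked for their rank at 72 h, were 1.30-fold and 1.23-fold higher at 12 h.

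The glycine series each spread widely. The highest members ran from a log2 change of 0.35 for valine (entry 7965, 7 contacts) to 0.84 for glutamine (entry 8647), which with proline's highest (entry 8808, 0.74) did not pass the threshold. The lowest members ran from -0.20 for proline (entry 8851) to -2.24 for cysteine and isoleucine (entries 8772 and 8049). Entry 8772 has 0 contacts.

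The change at 12 h went further by 24 h, in libraries that the 12 h comparison does not share. At 24 h 846 of 4416 tested entries were higher with the label 150 than untreated (19.2%) and 2572 lower (58.2%), with 500 higher at least 2-fold and a median log2 change of -2.14. Of the 876 gains at 12 h, 647 were called higher at 24 h (73.9%) and 23 lower, which is 76.5% of the calls higher at 24 h. Of the 2159 losses, 1731 were called lower at 24 h (80.2%, or 97.6% of the 1774 tested there) and 0 higher, which is 67.3% of the calls lower there. Across 4409 entries tested at both times, which share barcoded sub-pools, Spearman's rho was 0.90. The test of the difference between the effects, in 1 fit of the 20 libraries, placed the 24 h effect above that at 12 h for 842 of 4775 entries (17.6%) and below it for 2823 (59.1%).

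The families that gained and lost at 12 h differed further at 24 h. The median log2 change was 1.00 for proline variants, 1.078 with phenylalanine for every tryptophan, -4.49 for cysteine variants and -7.36 with tyrosine for every tryptophan. Of the 100 tyrosine variants 37 were tested at 24 h, where libraries with the label 150 held 700917 to 1408129 counts. A median that low rests on few or no reads with the label 150, so its size is only a rough figure. Valine variants, near 0 at 12 h, had 50 lower and 17 higher of 81 at 24 h. These counts lie near the 58.2% lower and 19.2% higher over all tested entries. Entry 8135 had a log2 change of 1.52 and entry 8706 one of -2.13 at 24 h.

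**Figure D5:**
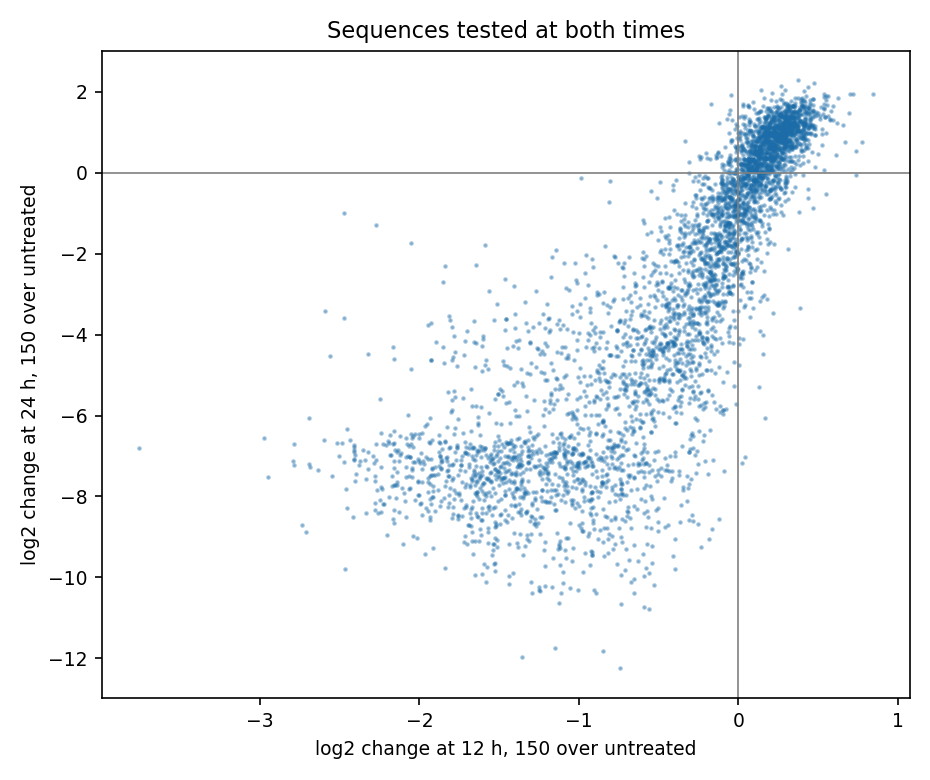
Log2 change of each of 4409 entries tested at both times, 150 over untreated, at 12 h (horizontal) and 24 h (vertical). Entries called higher at 12 h lie mostly above 0 at 24 h (647 of 876 called higher). Those called lower at 12 h have a median of -6.61 at 24 h, a size limited by depth.

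The label 200 at 12 h gave smaller changes. Against the same untreated libraries 137 of 5607 entries were higher (2.44%) and 407 lower (7.26%), with a median log2 change of -0.08. The effective number of sequences was 1611 ± 87.9 with the label 200, and stop-first entries held 0.0517 ± 0.0074% of reads (SD, n = 5), beside 0.0204 ± 0.0031% with the label 150 and 0.0471 ± 0.0091% untreated. Compared directly, the label 150 was higher than the label 200 for 670 of 4848 entries (13.8%) and lower for 1172 (24.2%), of which 497 were lower at least 2-fold. Stop-first entries were lower with the label 150 in 8 of 14 tested there and higher in 0. Proline variants were higher with the label 150 in 50 of 95 and methionine variants in 60 of 94.

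Cysteine variants lost share with both labels: 74 of 97 were lower with the label 150 and 58 of 97 with the label 200, each against the same untreated libraries. In the direct comparison 57 of 96 were lower with the label 150 than with the label 200 and 5 higher. Variants with every tryptophan replaced by tyrosine had 6 of 67 lower with the label 200, near the 7.26% over all tested entries. In the direct comparison 14 of 61 were lower with the label 150, near the 24.2% over all entries tested there. Entry 10747 was lower with both labels, by -1.48 with the label 200.

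How abundant an entry was before selection went with its change. Of 1320 entries above 200 CPM at 0 h, all tested, 513 were higher and 319 lower. Of 5465 entries with 10 to 50 CPM at 0 h, 1289 were tested, and 14 of these were higher and 631 lower. The filter on counts at 12 h keeps rare entries partly by their level in the groups compared. Chosen on 0 h instead, with a mean of at least 20 counts there, 8694 entries had a median log2 ratio of -0.50 with a prior of 2 counts, and 6844 were below 0. On that basis the medians were 0.28 for proline variants, 0.27 and 0.21 with phenylalanine and leucine for some tryptophans, -0.61 for cysteine variants and -0.74 with tyrosine for every tryptophan. Stop-first entries had -0.64, with 115 of 122 below 0. Losses of sparse families were shallower on that basis. Over 435 peptides with 2 aromatics and 2 aspartates the median was -0.75, against -1.78 among those tested at 12 h. It was -0.63 against -1.79 for peptides with 1 core copy, and -0.61 against -1.60 with 1 aromatic and 1 aspartate. Random peptides of glycine, tryptophan, arginine and aspartate had -0.81 against -1.15. The part of abundance in the differences between families was not tested.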

How the data were processed

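DNA recovered from yeast was sequenced to count designed entries. The authors deposited raw read counts per entry and replicate barcode, per the file headers; cutadapt and STAR stand in the submitters' processing notes, and how reads were assigned is not given in the sources used here. All 55 count columns were matched to samples. Libraries used here held 1378803 to 2709763 counts at 12 h; amplified reads lacking molecular identifiers are not separate molecules.

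Counts were tested in R 4.3.3 with edgeR 4.0.16 (quasi-likelihood, two-sided) on entries averaging 10 counts or more in the libraries compared, scaled to total counts, with the barcode number as a block and Benjamini-Hochberg adjustment at 0.05. Sub-pool barcodes were added before cloning, per the labels' protocols. Deviations from group means correlated at 0.936 to 0.949 between libraries of the same number and at -0.271 to -0.195 between others, so the numbers pair the samples. Library measures used exact permutation tests: a sign-flip test over barcode pairs and an unpaired test that ignores the pairing. Alternatives were TMM, DESeq2 1.42.0, stop-first scaling, other filters, no block, all groups in 1 fit, leaving out each barcode and, added after seeing the data, a 0 h filter and the direct comparison of labels.

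Named entries are the 12 largest gains and 8 largest losses (at least 50 CPM untreated) past the threshold in all 5 pairs, the 6 most abundant with the label 150, the control peptides, and the highest and lowest member of each glycine series. Leaders at 72 h were added with that outcome known. The samples, families and lists were chosen with earlier results of these data known. Peptide strings are not printed here; composition stands in for them. The fit was tested on simulated data.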

Additional observations from a re-analysis of the deposited data

Results flagged for a closer look

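In 136 groups of 5 values (family shares in each sample, and pair ratios of named entries), 8 held a value set apart from the other 4 by Dixon's criterion, where chance marks about 1 in 20. The gap to the nearest value as a share of the range was 0.737 for phenylalanine cores in 3 copies with the label 150 (barcode 4 high, at 3.36% of reads). It was 0.883 for leucine cores in 1 copy untreated (barcode 5 high), 0.729 for variants with every tryptophan replaced by tyrosine untreated (barcode 2 high, at 0.258%) and 0.855 for peptides with 1 aromatic and 1 aspartate untreated (barcode 4 high, at 0.1503%). Peptides with 3 cores gave 0.764 untreated (barcode 1 low, at 12.0%). Proline variants gave 0.772 with the label 150 and 0.749 untreated, with barcode 2 low in both samples at 3.33% and 2.71%. Entry 8607 gave 0.773, because barcode 4 had a log2 ratio of 1.15 where the others had 0.47 to 0.62.

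The effect at 24 h differed from that at 12 h in a test of the difference, above it for 842 entries and below it for 2823. The label 150 differed from the label 200 at 12 h in the direct edgeR fit, higher for 670 entries and lower for 1172, although the label 200 names the larger number; which dose each sample received was not tested.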

How the results depend on the processing

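The unpaired test that drops the replicate block leaves the mean log2 ratio unchanged by construction. That ratio was -0.22 for the effective number of sequences and -1.20 for the stop-first share. Both pass 0.05 in the unpaired test (p = 0.00794, exact permutation, its smallest possible p) where the paired test cannot. Counts at 12 h, 876 higher and 2159 lower, became 1840 and 1349 with TMM factors, 1575 and 1227 with DESeq2, 3043 and 117 scaled to stop-first reads, and 51 and 57 with all 11 groups in 1 fit. Without the replicate block they were 0 and 0. A minimum mean of 50 counts left 834 higher and 915 lower. Leaving out each barcode gave 708 to 814 higher and 1751 to 2089 lower. At 24 h, the replicate block aside, calls were 0 higher and 1665 lower, against 846 and 2572 with it, and a minimum of 50 counts left 1249 lower. For the difference between times, no replicate block left 0 higher and 798 lower, against 842 and 2823, and the minimum of 50 left 1396 lower. Scaling to stop-first reads was not run at 24 h or for the difference, where a library had under 100 such reads. A filter on 0 h counts in place of the 12 h one, chosen after seeing the data, gave 877 higher and 2162 lower. Named entries changed sign only with other scalings: 7968 to 0.24, 0.20 and 1.13 with TMM, DESeq2 and stop-first scaling, 8706 to 0.0584, 0.01675 and 0.96, 9288 to 0.27, 0.23 and 1.17, and 8851 to 0.09228, 0.04802 and 0.99; 8209 and 8596 turned to 0.29 and 0.44 with stop-first scaling. Of 51 family medians 8 changed sign with TMM factors and 7 when reads were summed over the family; 0 did with prior counts of 0.5 or 10. The causes of these differences between settings were not tested. Depth limits the losses: 7276 entries were too rare to test.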
